A study of Mus musculus with 6 samples.

Results

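Cyclic AMP phosphodiesterases are the enzymes that break down cyclic AMP (cAMP) and so end its signal. The 10 genes described here were taken by symbol from the 37411 gene rows of the count table: Pde4a, Pde4b, Pde4c, Pde4d, Pde3a, Pde3b, Pde7a, Pde7b, Pde8a and Pde10a. All 10 were found, and 9 of them passed the low-count filter that left 16233 genes for testing; Pde4c did not. RNA sequencing libraries came from primary cultures of hippocampal neurons of newborn (P0) CD-1 IGS mice, an outbred strain, at day 16 in vitro. In the forskolin group, 3 libraries (4, 5 and 6) came from cultures given 50 µM forskolin for 30 min, and in the control group 3 libraries (1, 2 and 3) came from cultures given the same volume of its solvent, dimethyl sulfoxide (DMSO). No genotype differs between the groups. Where library 6 is taken as the only forskolin library, the spread comes from the 3 DMSO libraries alone and the lone library is assumed to vary as they do; no replicate of that arm checks such a fit. Values per library are given in the order of libraries 1, 2 and 3 for DMSO and of libraries 4, 5 and 6 for forskolin. The labels do not say whether the libraries of a group came from separate cultures or litters, so p-values measure the spread between these libraries, which may be in part technical.

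Forskolin activates adenylyl cyclase, which makes cAMP from ATP; protein kinase A (PKA) and the exchange factors Rapgef3 and Rapgef4 then sense it. Phosphodiesterases set how long and how far the signal spreads. The Pde4 enzymes hydrolyse cAMP only and are the targets of rolipram; their long forms are activated when PKA phosphorylates them, and the genes have many alternative promoters. Pde3 enzymes hydrolyse cAMP and are inhibited by cyclic GMP, Pde7 and Pde8 enzymes are specific for cAMP and insensitive to rolipram, and Pde10a hydrolyses both cyclic nucleotides and is best known from striatal projection neurons.

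Library totals ranged from 28342764 to 47548379 counts, and library 6 stood apart from the other forskolin libraries. Summed over 12 microglia markers, the level was 23.0 to 35.3 CPM, a count divided by the scaled size of its library, in the DMSO libraries, 227 in library 4, 377 in library 5 and 25.1 in library 6. In libraries 4 and 5 together, 11 of these 12 markers lay above every DMSO library; none of the 12 was at 0 in any library. Summed over 14 neuron markers, the level was 4698 to 5925 CPM in the DMSO libraries, 3442 and 3699 CPM in libraries 4 and 5 and 5514 CPM in library 6. Of the 14, 9 were below every DMSO library in both libraries 4 and 5. The share of all tested genes outside the DMSO range in both libraries 4 and 5 was not computed. Without library 6, edgeR called 10 of 11 tested microglia markers higher, beside 15.8% of all tested genes. In that fit 8 of the 14 neuron markers were called lower, beside 16.7% of all tested genes. The astrocyte markers were also present in every library, at 7356 to 9013 CPM in sum, so that the cultures held glial RNA beside that of neurons. In such bulk samples fewer cells of a type and less RNA per cell cannot be told apart. The early response genes Fos and Nr4a1 and the cAMP-responsive repressor gene Crem were higher in all 3 forskolin libraries than in any DMSO library, with log2 fold changes of 2.46, 2.20 and 0.68 (edgeR adjusted p = 0.0376, 0.0652 and 0.0934); Fos alone of the 3 passed the threshold of 0.05 in this fit. DESeq2 called all 3 (10.9% of all tested genes), as did edgeR without library 6 (32.5%). With the GC trend removed edgeR called none of them and 0 of all tested genes (Fos adjusted p = 0.161). The log2 fold changes of Fos, Nr4a1 and Crem in that fit were 2.56, 2.48 and 0.44. EdgeR also called 0 of all tested genes with any 1 of libraries 1 to 5 left out.

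None of the 9 tested phosphodiesterases was called with edgeR's quasi-likelihood test over the 6 libraries at an adjusted p-value under 0.05, where 1.51% of all tested genes were called. Before adjustment 2 had a p-value under 0.05, Pde7a with a higher and Pde4a with a lower value under forskolin, while 22.3% of all tested genes met that limit. DESeq2 on the same counts called 1, Pde7a (10.9% of all tested genes), and limma-voom with library quality weights called 4, Pde7a, Pde3b, Pde4a and Pde4d (41.9%). The members' fitted log2 fold changes were positive for 6 of 9, with a median of 0.14, against a median of 0.02 over all tested genes. Only Pde7a had groups that did not overlap, where 26.5% of all tested genes had such groups in either direction and 10.3% in the direction of higher values. In the authors' deposited table of 132 genes, which starts at a log2 fold change of 1.501, there were 0 of the 10 phosphodiesterases, and the table holds 0.353% of the 37411 gene rows.

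**Figure D1:**
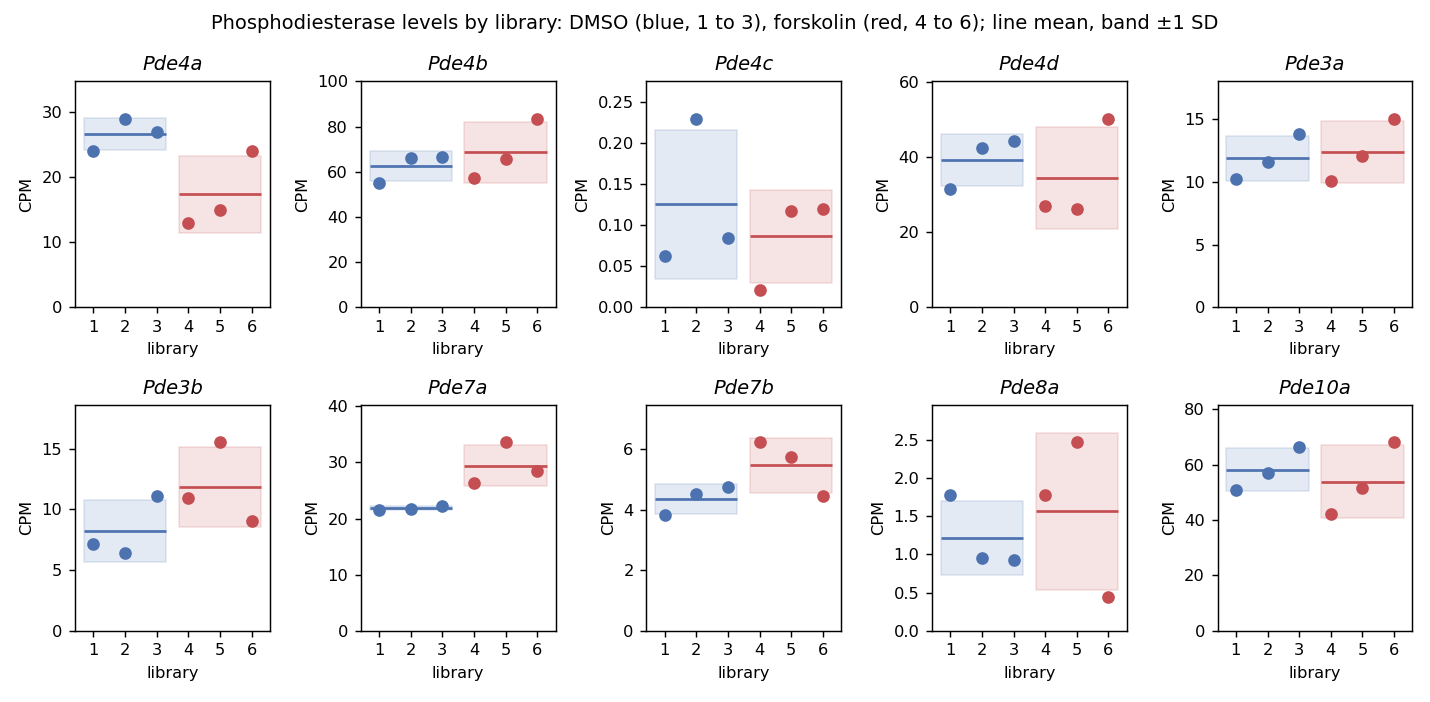
Level of each of the 10 phosphodiesterases in CPM (vertical axis, starting at 0, with its own scale per gene) in each of the 6 libraries (horizontal axis); points are libraries, the line is the group mean and the band ±1 SD. Pde7a is the one gene with all forskolin points above all DMSO points, and in Pde4a the points of libraries 4 and 5 lie at 13.0 and 15.04 CPM while library 6 lies at 24.1 CPM.

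Pde4b, whose product is a rolipram target in brain, lies at chr4:102087543-102607259 on the plus strand (GRCm38). It had 54.9, 66.1 and 66.3 CPM with DMSO against 57.1, 65.5 and 83.5 CPM with forskolin. The groups overlapped, and only library 6 was above all the DMSO libraries. Its log2 fold change was 0.14 ± 0.17 (SE), and the 95% interval, from 0.837-fold to 1.45-fold, covers values on both sides of no change (edgeR adjusted p = 0.645). Without library 6 the log2 fold change was -0.03 (edgeR adjusted p = 0.875), and with library 6 as the only forskolin library it was 0.45.

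Pde4d encodes the subtype that binds PKA anchoring proteins near the kinase, at chr13:108449948-109953461 on the plus strand. It had 31.3, 42.3 and 44.2 CPM with DMSO against 26.9, 26.1 and 50.2 CPM with forskolin. The forskolin libraries thus lay on both sides of the DMSO range: libraries 4 and 5 below it and library 6 above it. The log2 fold change was -0.19 ± 0.28 (SE; 95% interval 0.550-fold to 1.40-fold; edgeR adjusted p = 0.712). Without library 6 it was -0.57 (edgeR adjusted p = 0.0409; 32.5% of all tested genes were called there), and with library 6 alone 0.39. The summed level of the neuron markers was lower in libraries 4 and 5 than in library 6 as well, and its part in the Pde4d values was not tested.

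Pde4a, another cAMP-specific subtype of neurons and other cells, lies at chr9:21165714-21213248 on the plus strand. It had 24.1, 29.0 and 27.0 CPM with DMSO against 13.0, 15.04 and 24.1 CPM with forskolin. Libraries 4 and 5 were well below the DMSO range, and library 6 was at its lower edge. The mean was 26.7 ± 2.50 CPM (SD, n = 3) with DMSO and 17.4 ± 5.92 CPM (SD, n = 3) with forskolin, a log2 fold change of -0.62 ± 0.24 (SE; 95% interval 0.437-fold to 0.970-fold; edgeR adjusted p = 0.202). Without library 6 it was -0.93 (edgeR adjusted p = 0.00610), and with library 6 as the only forskolin library it was -0.11. The GC content of its longest transcript, 57.2%, is higher than that of 87.6% of tested genes. Correction for each library's trend on GC content gave -0.28 on the log2 scale (edgeR adjusted p = 0.653), and the same correction without library 6 gave -0.68 (edgeR adjusted p = 0.0156; 31.5% of all tested genes were called there).

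Pde4c, a subtype that is scarce in brain, had 2, 7 and 3 counts with DMSO against 1, 4 and 4 counts with forskolin. At this depth no difference was detectable, and no fold change is given.

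**Figure D2:**
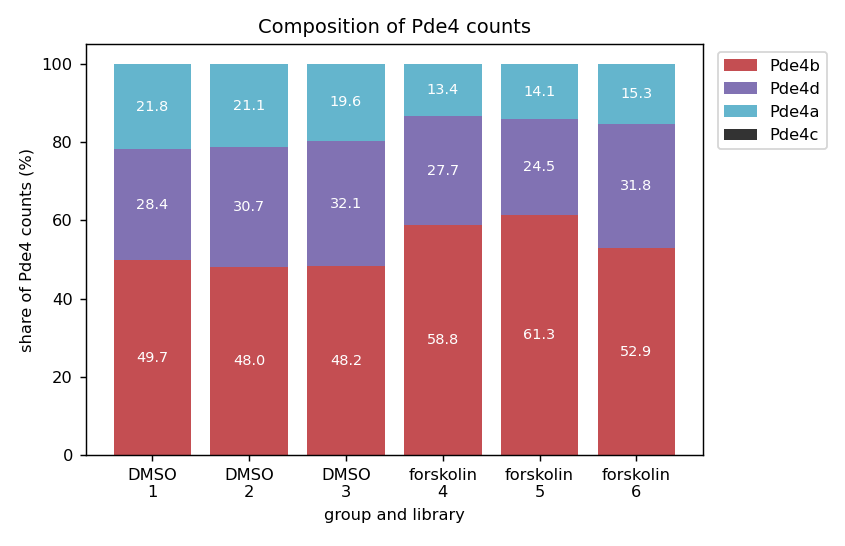
Share of each subtype in the summed counts of Pde4a, Pde4b, Pde4c and Pde4d (vertical axis, percent) in each library (horizontal axis, group and library number). Pde4b is the largest part of every bar, between 48.02 and 49.7% in the DMSO libraries and between 52.9 and 61.3% in the forskolin libraries, and Pde4a is smaller in each forskolin bar than in each DMSO bar.

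Within the Pde4 counts, a measure that no library scaling can move, the Pde4b and Pde4a shares did not overlap between the groups, library 6 included. The measure was chosen after the values were seen and is given as a description. How often such shares separate for other genes was not computed. In CPM, 26.5% of all tested genes had groups that did not overlap, and edgeR over the 6 libraries called neither Pde4b nor Pde4a. Pde4b made up 49.7, 48.02 and 48.2% of Pde4 counts with DMSO against 58.8, 61.3 and 52.9% with forskolin. Its 95% Wilson interval in library 6 ran from 51.5 to 54.2%, and in library 1, the highest of the DMSO libraries, from 48.1 to 51.4%; these intervals cover counting error only. Pde4a made up 21.8, 21.1 and 19.6% with DMSO against 13.4, 14.1 and 15.3% with forskolin. Pde4d, at 28.4 to 32.1% with DMSO and 24.5 to 31.8% with forskolin, overlapped. The longest transcripts of Pde4b and Pde4a differ in GC content, 45.9 against 57.2%, and with each library's GC trend removed the fitted log2 fold changes were 0.02 for Pde4b and -0.28 for Pde4a, against 0.14 and -0.62 without that correction.

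Gene counts sum over all promoters of a gene. CREB, the factor that PKA activates, binds the cAMP response element, whose full letters are TGACGTCA and whose core is TGACG. RefSeq promoter windows (GRCm38.p6; 250 bases before to 50 after a start) were at hand for 7 of the 10 genes, 13 windows in all. Pde7a, Pde3a and Pde3b had no window and were not searched. The core, searched on both strands, was in 3 of these 13 windows (23.1%), against 20.8% of 32851 windows of all genes. The full element was in 0 of the 13 and in 1.79% of all windows. The 3 windows with the core belong to Pde4b, Pde4a and Pde8a. They are shown to place the core letters, which are near as frequent in all windows, and binding of CREB there was not tested. Each is given as the 100 bases before the start, 5′ to 3′ on the gene's strand, with the core or its reverse complement in capitals.
Pde4b, chr4:102421455-102421554, plus strand: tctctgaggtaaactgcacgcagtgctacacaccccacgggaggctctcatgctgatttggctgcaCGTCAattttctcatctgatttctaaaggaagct
Pde4a, chr9:21184001-21184100, plus strand: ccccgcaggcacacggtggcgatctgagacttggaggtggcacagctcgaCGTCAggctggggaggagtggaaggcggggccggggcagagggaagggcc
Pde8a, chr7:81213165-81213264, plus strand: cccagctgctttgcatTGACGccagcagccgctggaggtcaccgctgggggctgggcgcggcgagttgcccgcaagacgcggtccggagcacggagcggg
Each is 1 start among several or the only one listed: Pde4b has 4 windows and Pde4a has 3, of which 1 each holds the core, and Pde8a has 1. The counts do not tell which start was used, and the 3 genes did not share a direction in the fit, at log2 fold changes of 0.14, -0.62 and 0.36.

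Pde7a encodes a rolipram-insensitive, cAMP-specific enzyme that also binds PKA catalytic subunits; the gene lies at chr3:19223108-19311322 on the minus strand. It had 21.5, 21.7 and 22.3 CPM with DMSO against 26.3, 33.6 and 28.4 CPM with forskolin. Every forskolin library was above every DMSO library, and the DMSO libraries lay close together. The means were 21.8 ± 0.390 and 29.4 ± 3.72 CPM (SD, n = 3), a log2 fold change of 0.43 ± 0.13 (SE), or 1.35-fold with a 95% interval from 1.09-fold to 1.66-fold (edgeR adjusted p = 0.141; DESeq2 adjusted p = 0.0353). The log2 fold change was 0.46 in libraries 4 and 5 (edgeR adjusted p = 0.0396) and 0.41 in library 6 alone. With the GC trend removed it was 0.23 (edgeR adjusted p = 0.453), and with that and without library 6 it was 0.24 (edgeR adjusted p = 0.168). The GC content of the longest transcript is 43.9%, above 20.9% of tested genes.

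Its paralog Pde7b, a second cAMP-specific enzyme of this family, was scarcer. It had 3.81, 4.53 and 4.74 CPM with DMSO against 6.22, 5.73 and 4.45 CPM with forskolin. Libraries 4 and 5 were above the DMSO range and library 6 was inside it. The log2 fold change was 0.33 ± 0.22 (SE; 95% interval 0.879-fold to 1.79-fold; edgeR adjusted p = 0.397), and after GC correction it was 0.03 (edgeR adjusted p = 0.951).

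Pde3b, the enzyme through which insulin lowers cAMP in fat cells, had 7.12, 6.43 and 11.1 CPM with DMSO against 10.9, 15.5 and 9.08 CPM with forskolin. Library 5 alone was above the DMSO range, and DMSO library 3 was above forskolin libraries 4 and 6. The log2 fold change was 0.52 ± 0.29 (SE; 95% interval 0.888-fold to 2.33-fold; edgeR adjusted p = 0.326). It was 0.80 without DMSO library 3, 0.32 without forskolin library 5 and 0.34 after GC correction. Pde3a, known from heart and platelets, had 10.2, 11.6 and 13.8 CPM with DMSO against 10.1, 12.05 and 15.1 CPM with forskolin. The groups spanned nearly the same range (log2 fold change 0.06 ± 0.20 (SE); 95% interval 0.744-fold to 1.46-fold; edgeR adjusted p = 0.882).

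Pde8a, a high-affinity cAMP enzyme that common inhibitors such as IBMX spare, was scarce. The counts were 57, 29 and 33 with DMSO against 84, 84 and 15 with forskolin, or 1.78, 0.952 and 0.926 CPM against 1.78, 2.47 and 0.448 CPM. Library 6 had the lowest value of all and library 5 the highest, so the spread within the forskolin group exceeded any difference between the groups (log2 fold change 0.36 ± 0.61 (SE); 95% interval 0.473-fold to 3.50-fold; edgeR adjusted p = 0.745).

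Pde10a, the dual-substrate enzyme, lies at chr17:8525372-8986648 on the plus strand. It had 51.0, 57.0 and 66.3 CPM with DMSO against 42.0, 51.7 and 68.0 CPM with forskolin. The forskolin values enclosed the DMSO range, with library 4 below it and library 6 above it. The log2 fold change was -0.11 ± 0.20 (SE; 95% interval 0.671-fold to 1.28-fold; edgeR adjusted p = 0.764).

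**Figure D3:**
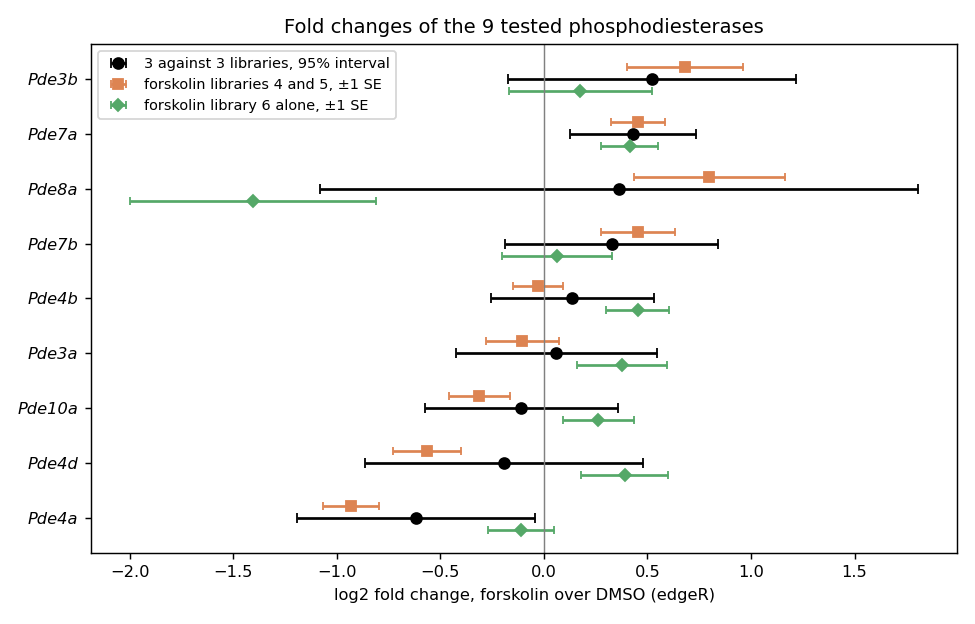
Log2 fold change of forskolin over DMSO (horizontal axis) for the 9 tested phosphodiesterases (vertical axis), with all 6 libraries (circles, 95% interval), with forskolin libraries 4 and 5 only (squares, ±1 SE) and with forskolin library 6 only (diamonds, ±1 SE, the spread taken from the DMSO libraries). The 3 symbols nearly coincide for Pde7a (0.43, 0.46 and 0.41), while those of Pde4d lie on both sides of 0 (-0.57 without library 6 and 0.39 with library 6 alone).

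Of the 9 tested genes, 3 were called without library 6: Pde7a higher, Pde4a and Pde4d lower (15.8% of all tested genes were called higher and 16.7% lower in that fit). With library 6 as the only forskolin library, where the DMSO libraries alone give the spread, edgeR called 0 of the 9 and 0.542% of all tested genes. Before adjustment 2 of the 9, Pde4b and Pde7a, were under 0.05 in that fit, as were 15.2% of all tested genes. Pde7a, Pde7b, Pde3b and Pde4a had the same sign in these 3 fits, and Pde4b, Pde4d, Pde3a, Pde8a and Pde10a did not. As log2 ratios to the DMSO mean, Pde4d stood at -0.53, -0.57 and 0.37 in libraries 4, 5 and 6, and Pde4a at -1.03, -0.82 and -0.14. The neuron marker sum stood at -0.65, -0.54 and 0.03 and the microglia marker sum at 3.06, 3.79 and -0.12; their part in the members' values was not tested.

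**Figure D4:**
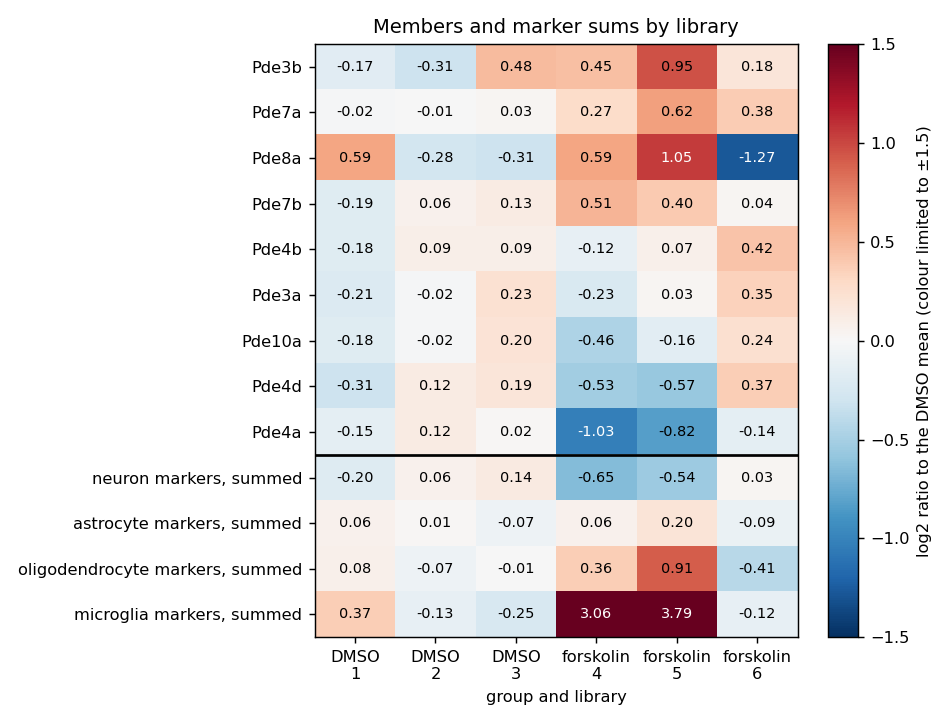
Log2 ratio to the mean of the DMSO libraries (colour, with the value printed) in each library (horizontal axis) for the 9 tested phosphodiesterases and, under the line, for the summed CPM of 4 marker lists. Libraries 4 and 5 are low in Pde4a, Pde4d and the neuron marker sum, and Pde7a is positive in libraries 4, 5 and 6 (0.27, 0.62 and 0.38).

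Scaled to the summed counts of the 14 neuron markers in place of the whole library, a scale chosen after the values were seen, Pde4b had 117, 117 and 112 counts per 10000 neuron marker counts with DMSO against 166, 177 and 151 with forskolin. On this scale Pde4b, Pde7a, Pde3a and Pde10a lay above, and Pde4a below, every DMSO library in all 3 forskolin libraries. The scale itself moves most genes up: 20.1% of all tested genes were higher and 2.85% lower with no overlap, and over all tested genes the median log2 fold change was 0.43. Pde4b, at 0.51 (edgeR adjusted p = 0.185), lay close to that median. Pde7a lay at 0.84 (edgeR adjusted p = 0.185) and Pde4a at -0.28 (edgeR adjusted p = 0.356), with 0 genes called by edgeR over the whole table and 3973 under 0.05 before adjustment. Of the 14 neuron markers, 2 were themselves called lower by edgeR over the 6 libraries with TMM scaling, beside 1.34% of all tested genes.

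Between genes, levels can be compared only per transcript length. In CPM per kb of the longest annotated transcript (GENCODE M21), the DMSO means ran from 14.5 ± 1.52 (SD, n = 3) for Pde4b through 9.33 ± 1.65 for Pde4d, 7.48 ± 0.997 for Pde10a, 5.74 ± 0.536 for Pde4a and 3.47 ± 0.0620 for Pde7a to 1.25 ± 0.387 for Pde3b, 0.965 ± 0.147 for Pde3a, 0.813 ± 0.0909 for Pde7b, 0.321 ± 0.128 for Pde8a and 0.0363 ± 0.0263 for Pde4c. Neighbours whose DMSO ranges overlapped were Pde4d and Pde10a, Pde3b and Pde3a, and Pde3a and Pde7b; all other neighbours were apart. With forskolin Pde7a, at 4.67 ± 0.590 CPM per kb, was above Pde4a, at 3.74 ± 1.27, in the order of means; Pde4a was above Pde7a in all the DMSO libraries and in library 6, 4 libraries of 6. With the median transcript length in place of the longest, Pde7a moved from rank 5 to rank 2 with DMSO, where its range overlapped that of Pde4b at rank 1, and with forskolin it was at rank 1, at 38.7 ± 4.89 CPM per kb against 32.3 ± 6.33 for Pde4b. The order of Pde4b and Pde7a with forskolin thus differed between the 2 lengths; the median of the 10 annotated Pde7a transcripts is 0.761 kb and the longest 6.30 kb.

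**Figure D5:**
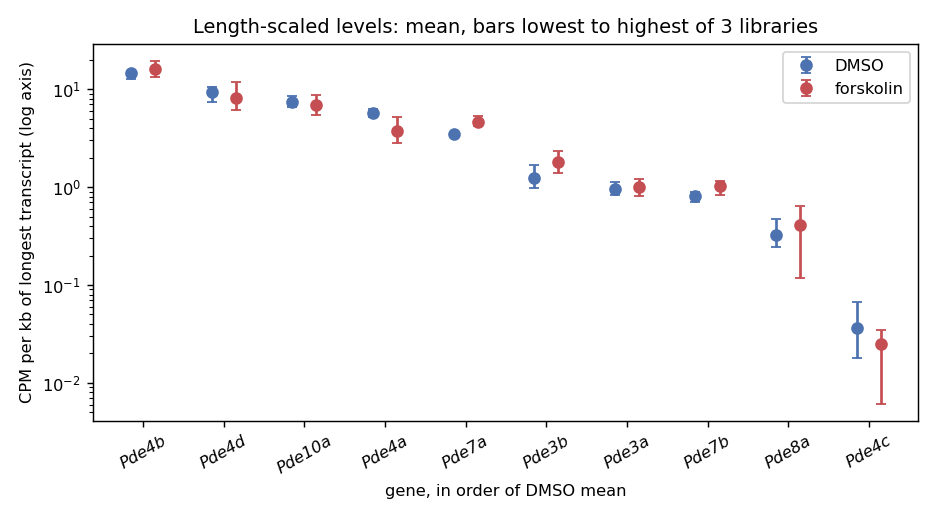
Level in CPM per kb of the longest annotated transcript (vertical axis, logarithmic) for the 10 phosphodiesterases in the order of their DMSO mean (horizontal axis); points are group means of 3 libraries and bars run from the lowest to the highest library. On this length Pde4b is first in both groups (14.5 and 16.0), and the bars of Pde7a do not overlap between the groups.

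Likeness across the 6 libraries was measured by Pearson's r of log2 CPM over 11306 other genes with a mean of at least 5 CPM, for 3 members. The genes most like Pde4b were Rtl1 (r = 0.989), Med23 (0.988) and Mtmr2 (0.985). Those most like Pde4d were Slc4a1ap (0.999), 1110004F10Rik (0.998) and Tsr2 (0.998). Those most like Pde10a were Slc1a2 (0.993), Fam135b (0.993) and Lingo2 (0.992). With 6 libraries and so many candidates, high values are to be had for any gene, and these are given as a description only.

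Of 14 genes named as phosphodiesterases outside the set, 10 were tested. EdgeR over the 6 libraries called 0 of these, with 0 under 0.05 before adjustment, beside 1.51% and 22.3% of all tested genes. DESeq2 also called 0, beside 10.9%. Other fits did make calls: 4 with library quality weights (41.9% of all tested genes), 4 without library 6, all lower (16.7% were called lower), and 5 with the GC trend removed and without library 6 (31.5%). With edgeR over the 6 libraries, the median of the 10 log2 fold changes was -0.23. The smallest p-values in that fit were those of Pde6d, Pde2a and Pde8b. Pde6d, which encodes a carrier of prenylated proteins, had 21.5, 23.9 and 21.4 CPM with DMSO against 16.0, 16.7 and 20.4 CPM with forskolin (log2 fold change -0.33; edgeR adjusted p = 0.229). Pde2a, an enzyme that cyclic GMP stimulates, had 271, 367 and 364 CPM with DMSO against 139, 156 and 363 CPM with forskolin. Library 6 lay within the DMSO range and libraries 4 and 5 below it (log2 fold change -0.60; edgeR adjusted p = 0.371). Pde8b, the paralog of Pde8a, had 35.4, 33.8 and 34.9 CPM with DMSO against 23.4, 22.9 and 38.4 CPM with forskolin, with libraries 4 and 5 below the DMSO range and library 6 above it (log2 fold change -0.30; edgeR adjusted p = 0.427). Without library 6 Pde2a stood at -1.18 and Pde8b at -0.59 on the log2 scale (edgeR adjusted p = 0.00528 and 0.00763); these are 2 of the 4 genes called lower there, with Pde6d and Pde9a.

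Of 34 other genes of the cAMP pathway (adenylyl cyclases, PKA subunits and inhibitors, exchange factors, anchors and transcriptional partners), 32 were tested. EdgeR over the 6 libraries called 0 higher and 1 lower, where 1.34% of all tested genes were called lower, and their median log2 fold change was -0.08. The called gene was Crtc1, a coactivator of CREB, with 51.6, 54.0 and 54.8 CPM with DMSO against 36.4, 38.3 and 34.2 CPM with forskolin (log2 fold change -0.56 ± 0.10 (SE); edgeR adjusted p = 0.0482). Library 6 was here with the other forskolin libraries. With any 1 of libraries 1 to 5 left out, edgeR called 0 of the 32 and 0 of all tested genes. Crtc1 stood at -0.29 on the log2 scale once the trend with GC content was taken out, a fit in which edgeR called 0 of the 32 and 0 of all tested genes; before adjustment 5 of the 32 and 1948 of all 16233 were under 0.05. DESeq2 called 4 higher and 2 lower of the 32, beside 10.9% of all tested genes, and edgeR without library 6 called 4 higher and 11 lower, beside 15.8% and 16.7% of all tested genes. In the authors' deposited table there were 2 of the 34, Sik1 and Nr4a1, beside 0.353% of all gene rows.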

How the data were processed

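The authors deposited whole-number counts per gene symbol for 6 libraries of mouse hippocampal cultures. The submitters' processing notes name Salmon, DESeq and the build GRCm38 with no role; the annotation and the strand setting are not given in the sources used here, so that reads of overlapping or opposite-strand transcripts cannot be told apart, and the whole numbers may be rounded estimates. A second table of the authors gives, per the file headers, log2 fold changes and adjusted p-values; it served only for membership and limits.

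Genes were filtered with filterByExpr (minimum count 10, minimum total 15), scaled by TMM, and tested with glmQLFit and glmQLFTest in edgeR 4.0.16 (R 4.3.3; limma 3.58.1, DESeq2 1.42.0), with Benjamini-Hochberg adjustment over 16233 genes and a threshold of 0.05. "Called" means past that threshold. The SE is the absolute log2 fold change over the square root of F. Log2 CPM used a prior count of 2. GC content and length came from GENCODE M21 (15769 tested genes, 97.1%, had a value); GC trends were lowess fits with span 0.3, used as offsets. Pairs of libraries differed by more than sampling noise (chi-square per degree of freedom at least 30.3). The test was checked on simulated data, with the same dispersion for every gene, no library that stood apart and no GC trend. DESeq2's missing adjusted p-values stayed missing.

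All 10 members were named, with Fos, Nr4a1 and Crem as a check; in the other lists the called genes, or else the 3 with the smallest p-values, and for Pde4b, Pde4d and Pde10a the 3 genes of highest r. Sik1 and Pde9a were named after their values were seen. The marker lists were those of microglia, neurons, astrocytes, the oligodendrocyte lineage (summed CPM 826 to 919 with DMSO, 653 to 1628 with forskolin) and vascular cells (64.7 to 125 and 61.9 to 178). Members and lists were chosen with earlier results of these data known. Alternatives changed the tool, scaling, filter, GC handling and libraries.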

Additional observations from a re-analysis of the deposited data

How the results depend on the processing

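The number of genes called over the whole table was 245 with edgeR, 1765 with DESeq2, 6795 with quality weights, 137 with RLE factors, 0 with the GC trend removed, 5108 with that and without library 6, 88 without libraries 4 and 5, and 0 on the neuron marker scale; leaving out 1 library gave 0 to 5280, the highest without library 6. For the phosphodiesterases, 0 called became 1 with DESeq2, 4 with quality weights and 2 with the GC trend removed and without library 6, and leaving out 1 library gave 0 to 3. For the other phosphodiesterases, 0 became 4 with quality weights and 5 with the GC trend removed and without library 6, and leaving out 1 library gave 0 to 4. For the cAMP pathway genes, 1 became 6 with DESeq2, 16 with quality weights, 17 with the GC trend removed and without library 6, and 0 with RLE factors, a mean CPM of at least 1, the GC trend removed, without libraries 4 and 5, or on the neuron marker scale; leaving out 1 library gave 0 to 15. The cause of these shifts was not tested.

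The sign of Pde4a, Pde3b, Pde7a and Pde7b held under all 16 alternatives. Pde4b turned to -0.027 without library 6 (-0.027 to 0.25 over the leave-outs of 1 library), -0.020 with quality weights and -0.14 with the GC trend removed and without library 6. Pde4d turned to 0.0078 without library 5 (-0.57 to 0.0078 over such leave-outs), 0.39 without libraries 4 and 5 and 0.15 on the neuron marker scale. Pde3a turned to -0.077 with quality weights, -0.039 with library size alone, -0.18 with the GC trend removed, -0.038 without library 1, -0.10 without library 6 (-0.10 to 0.19) and -0.36 with the GC trend removed and without library 6. Pde8a turned to -0.082 without library 5 (-0.082 to 0.80) and -1.40 without libraries 4 and 5. Pde10a turned to 0.042 without library 4 (-0.31 to 0.042), 0.26 without libraries 4 and 5 and 0.26 on the neuron marker scale. The full element TGACGTCA was in 0 member windows, against 3 with the core. Library size alone moved the median of all genes from 0.02 to -0.09. No paired analysis was possible because the groups share no replicate number. Depth limits Pde4c, with 1 to 7 counts per library. Without libraries 4 and 5 the spread comes from the DMSO libraries alone.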
